A study of Mus musculus with 4 samples.

Results

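Interferon-induced genes and their regulators were followed in mouse embryonic stem cells with and without Suz12. The group holds 8 genes: the effectors Ifitm1, Ifitm2, Ifitm3, Bst2 and Oas1a and the transcription factors Irf1, Irf7 and Irf9. They were chosen by gene symbol in the platform annotation from 18193 genes on the array, and each was measured by 1 of its 45101 probe sets, none of which listed a further symbol. The study compared WT cells with Suz12KO cells, embryonic stem cells labelled as a Suz12 knockout, on 2 Affymetrix expression arrays per genotype. Suz12 belongs to the core of Polycomb repressive complex 2, which methylates lysine 27 of histone H3 and keeps many developmental genes silent. The labels describe 1 pool per genotype, made of equal parts of RNA from 3 clones, so spread between clones was not measured and both arrays of a genotype may hold the same pool. The labels name no treatment, and they do not say how the Suz12 alleles were disrupted or whether the replicate arrays stem from separate cultures. All p-values below therefore measure the spread between arrays, which may be technical. In such a pool, a change in RNA per cell and a change in the share of cells that express a gene cannot be told apart.

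Interferons are secreted proteins that warn cells of viral infection. Their receptors act through JAK kinases and STAT proteins, and for type I interferon the active complex includes Irf9, which supplies the DNA contact and binds a promoter motif called the interferon-stimulated response element. Irf1 and Irf7 are themselves inducible factors that bind similar motifs, and Irf7 amplifies interferon production. Embryonic stem cells are known to respond weakly to interferon, while pluripotent cells express some interferon-induced genes, Ifitm genes among them, without any interferon.

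The promoters of these genes differ in the interferon motifs they hold. RefSeq (GRCm38.p6) gave a window from 250 bases before to 50 bases after the start site for all 8 genes, with 2 start sites each for Irf1 and Irf9. The core of the response element was searched as GAAA, any 2 bases and GAAA on both strands, counting overlapping matches, and it was present in 3.44% of the 32851 promoter windows of the same length. The windows of Oas1a, Ifitm2, Ifitm3 and Bst2 held it. The 250 bases before the start are shown, in the direction of transcription and with response element cores in capitals, for the 3 genes that rose in Suz12KO (Oas1a, Ifitm2 and Ifitm1) and for Bst2, which has the same arrangement of cores as Oas1a but did not pass the test. They lie on the minus strand at chr5:120907526-120907775 (Oas1a), chr7:140955962-140956211 (Ifitm2) and chr8:71537473-71537722 (Bst2), and on the plus strand at chr7:140967826-140968075 (Ifitm1).
Oas1a: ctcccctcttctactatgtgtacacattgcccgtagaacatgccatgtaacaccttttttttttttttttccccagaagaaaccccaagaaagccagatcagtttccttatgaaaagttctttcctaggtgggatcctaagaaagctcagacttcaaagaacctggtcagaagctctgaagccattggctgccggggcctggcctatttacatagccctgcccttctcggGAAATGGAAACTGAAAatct
Ifitm2: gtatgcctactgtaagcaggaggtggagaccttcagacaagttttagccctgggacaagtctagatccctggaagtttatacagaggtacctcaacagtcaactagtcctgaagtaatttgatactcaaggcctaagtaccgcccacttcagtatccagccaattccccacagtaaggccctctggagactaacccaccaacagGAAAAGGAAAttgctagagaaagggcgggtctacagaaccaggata
Ifitm1: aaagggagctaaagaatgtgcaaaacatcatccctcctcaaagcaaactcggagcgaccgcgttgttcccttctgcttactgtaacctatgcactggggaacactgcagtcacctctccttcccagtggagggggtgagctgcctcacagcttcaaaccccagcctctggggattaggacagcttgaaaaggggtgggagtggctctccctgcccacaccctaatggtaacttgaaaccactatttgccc
Bst2: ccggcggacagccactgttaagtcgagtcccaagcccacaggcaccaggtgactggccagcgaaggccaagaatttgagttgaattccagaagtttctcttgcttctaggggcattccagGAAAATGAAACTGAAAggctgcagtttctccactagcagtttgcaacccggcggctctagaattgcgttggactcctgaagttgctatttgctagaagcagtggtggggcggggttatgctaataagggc

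Oas1a carried 2 overlapping cores, GAAATGGAAA at 20 bases before the start site and GAAACTGAAA at 14 bases before it. Bst2 carried an overlapping pair of the same kind, GAAAATGAAA and GAAACTGAAA, farther away at 130 and 124 bases before the start. Ifitm2 had 1 core (GAAAAGGAAA) at 46 bases before the start. Ifitm3 held the same letters at position 3 and a further core, GAAACCGAAA, at position 20, both counted from 1 at the start site and therefore inside the transcript. No core was found in these windows of Ifitm1, Irf1, Irf7 or Irf9. The gamma-activated site, a promoter motif of the interferon gamma response, was searched as TTCNNNGAA, which reads the same on either strand, and stood in 8.30% of all windows. It occurred in Oas1a, Ifitm3, Bst2 and the first Irf1 promoter, and in Ifitm3 and Bst2 it overlapped a response element core. Such matches are descriptions of letters, and binding was not measured.

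**Figure D1:**
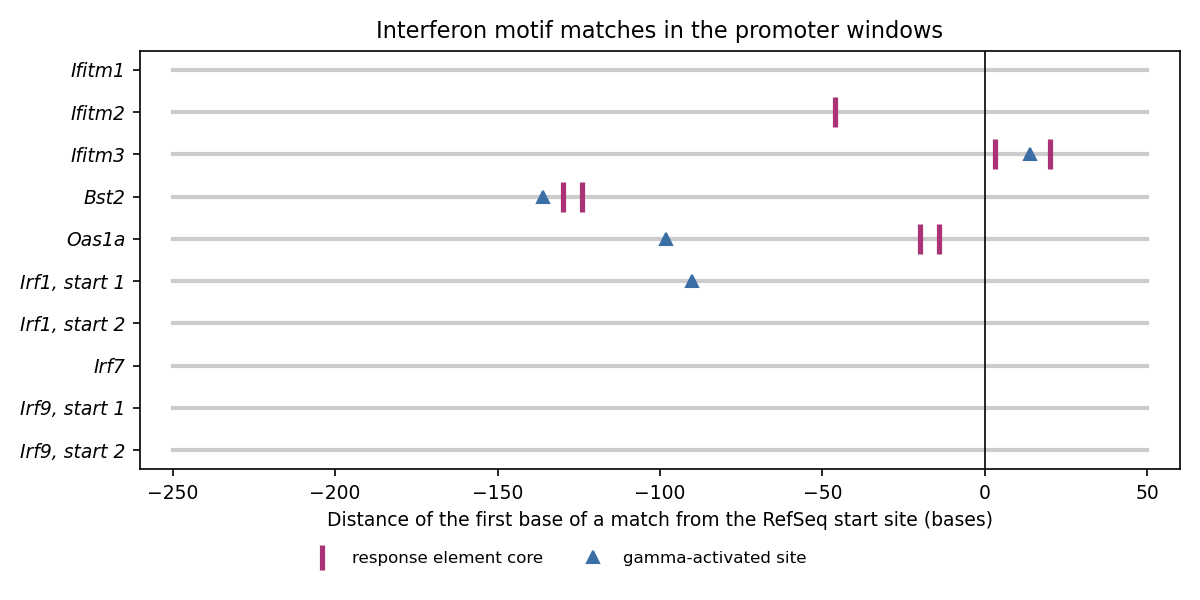
Positions of motif matches in the promoter windows of the 8 genes. The horizontal axis gives the distance in bases of the first base of a match from the RefSeq start site (line at 0), the grey bars are the windows searched, vertical ticks are response element cores and triangles are gamma-activated sites. Oas1a has 2 cores just before its start, Bst2 has 2 farther away, Ifitm3 has its matches after the start and Ifitm1 has none.

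Signal that background alone can give was read from 27 probe sets for Bacillus transcripts, which were low on every array. The highest of these was 141 and 191 on the WT arrays and 195 and 174 on the Suz12KO arrays, against median signals of 171 to 202 over all probe sets. Below, a signal is called within background when it is at or under the highest of these on its own array. Suz12 itself measured 1097 and 1094 on the WT arrays against 217 and 369 on the Suz12KO arrays (log2 fold change -1.89, SE 0.27, adjusted p = 0.00213 in the limma fit below). This probe set was lower but still above background on both Suz12KO arrays, as was another at 274 and 301. Other Suz12 probe sets reached background. One measured 895 and 816 on the WT arrays against 25.6, within background, and 243 on the Suz12KO arrays. A further one measured 150 and 283 against 128 and 45.6, both within background. The remaining probe sets were within background on every array. With the mean of its probe sets the change of -1.67 did not pass (limma adjusted p = 0.0602). The embryonic stem cell identity in the labels was checked with 10 markers, among them Pou5f1 and Nanog. All 10 were above background on every array and rose in Suz12KO (100%, beside 4.48% of all tested genes called higher). Their summed signal was 66771 and 66305 on the WT arrays against 121673 and 124629 on the Suz12KO arrays. Of 12 markers of fibroblasts, which feed some stem cell cultures, 7 could be tested and 3 fell (Col1a1, Col1a2 and Col3a1). These make up 42.9%, beside 5.5% of all tested genes. The other 4 did not pass, with log2 fold changes of -0.47 (Pdgfra), -1.02 (Twist2), 0.41 (Thy1) and 0.22 (Fbln2). The summed signal of the 12 was 6477 and 6920 on the WT arrays against 2729 and 2253 on the Suz12KO arrays. Most of that sum in WT, and of its fall, came from the 3 collagens. Col1a1 alone gave 2859 and 2599 against 435 and 448. Col1a2 gave 1347 and 1590 against 500 and 332, and Col3a1 813 and 1133 against 252 and 172. Of the other tested markers, Thy1 and Fbln2 overlapped between genotypes, and Pdgfra and Twist2 did not. Of 9 immune cell markers, 4 could be tested and 0 passed (limma, 0 at an unadjusted p under 0.05). Over all tested genes 9.97% were called in either direction, so 0 calls among 4 say little. Csf1r, Cd68 and Adgre1 were above background on every array, and Lyz2 on both WT arrays but on neither Suz12KO array. Ptprc, a marker of white blood cells, was 1 of 4 within background on every array. The summed signal of the immune markers overlapped between genotypes, at 1849 and 2063 on the WT arrays against 1960 and 1676 on the others. The embryonic stem cell markers and the 3 collagen markers of fibroblasts differed with genotype, and their part in the results below was not tested.

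Oas1a, Ifitm1 and Ifitm2 rose in Suz12KO, while Ifitm3, Bst2, Irf1 and Irf9 did not pass the test and Irf7 was too dim to be tested by gene. Changes were tested with limma on log2(signal + 16), which understates the change of dim genes, with Benjamini-Hochberg adjustment over the 12735 genes above the 30th percentile of mean level, and a gene is called at an adjusted p under 0.05. The 3 rises among 7 tested genes stand beside 4.48% of all tested genes called higher and 5.5% called lower (9.97% in either direction). In the fit of all 31526 probe sets above the filter the same 3 passed among 8, where 2.43% were called higher and 3.15% lower (5.58% in either direction). In 5 of the 8 genes (Oas1a, Ifitm1, Ifitm2, Ifitm3 and Irf9) both Suz12KO arrays lay above both WT arrays, an arrangement found for 29% of all tested genes, with the reverse in 23.9% and either in 52.9%. The median log2 fold change of the 7 genes was 0.84, against 0.04 for all tested genes. The group was picked with earlier results of these arrays known, so these counts describe it and are no independent evidence of a direction.

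**Figure D2:**
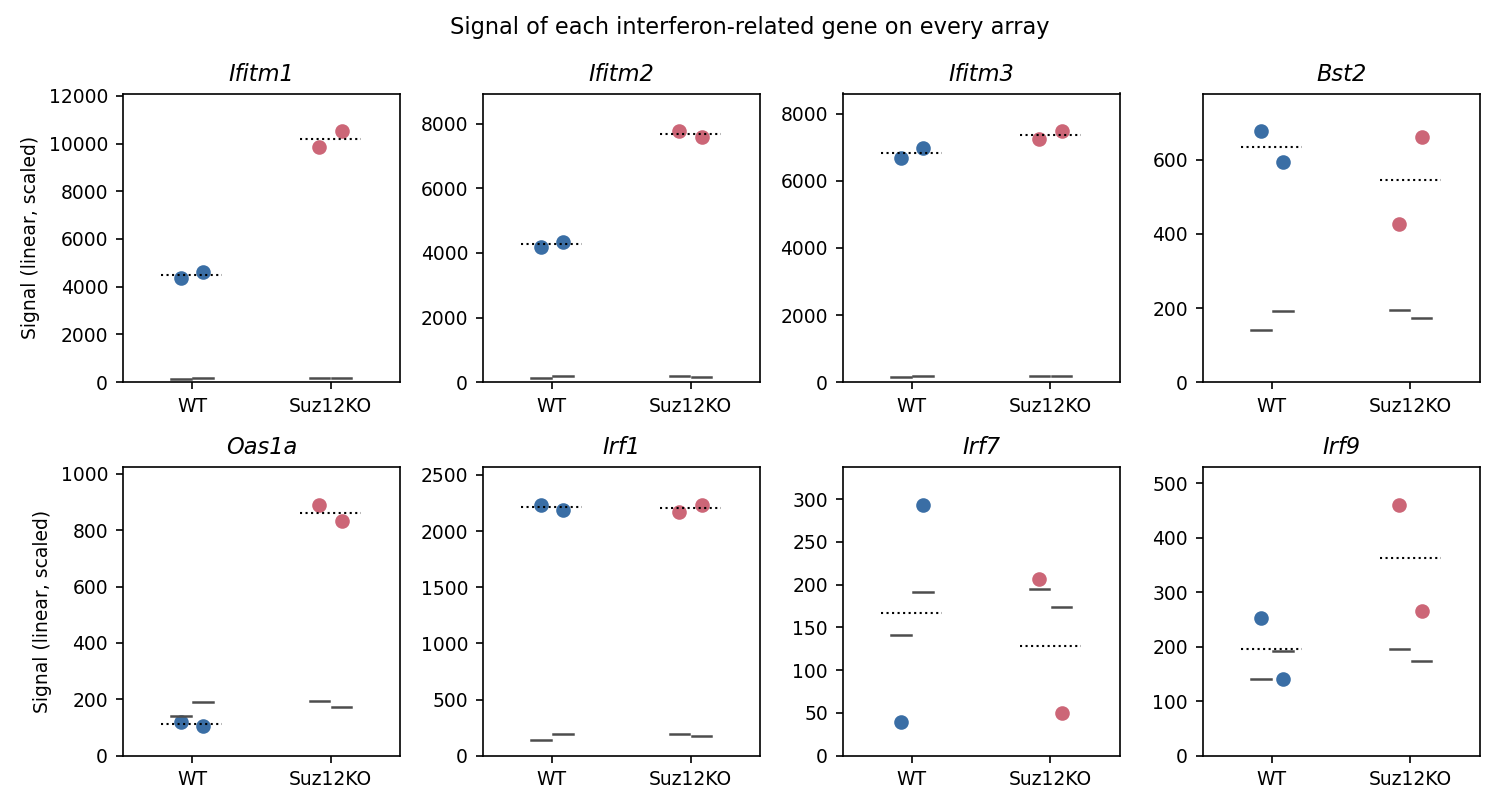
Signal of the 8 genes on each array, on a linear axis that starts at 0 and differs between panels. Points are single arrays (WT blue, Suz12KO red), dotted lines are the means of 2 arrays, and short grey dashes mark the highest Bacillus spike of each array. Ifitm1, Ifitm2 and Oas1a show groups that lie far apart (Oas1a at 118 and 106 against 891 and 832), and both Oas1a points of WT lie under their background dash.

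**Figure D3:**
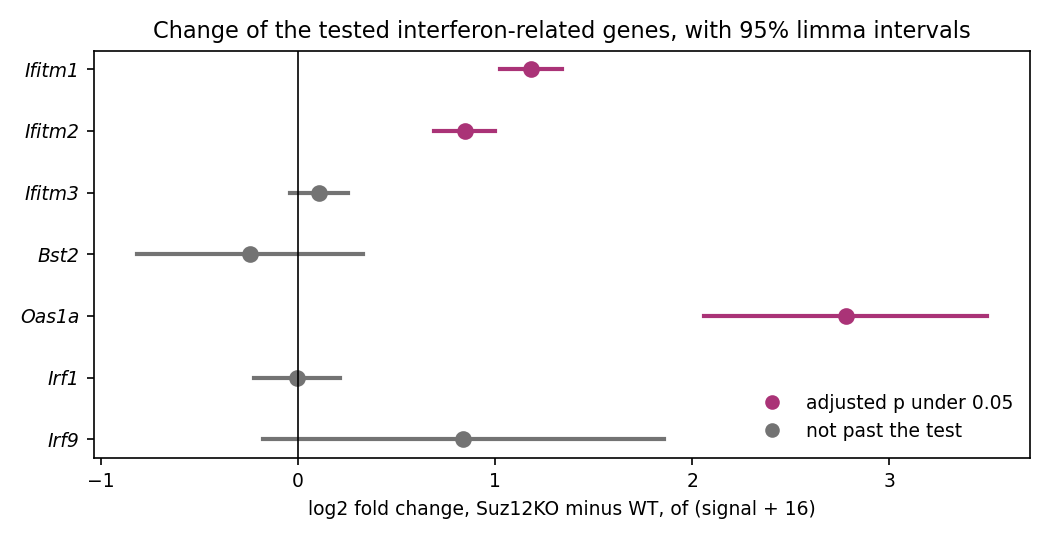
Log2 fold change of signal + 16 (Suz12KO minus WT) of the 7 tested genes with 95% intervals from limma. The intervals of Ifitm1, Ifitm2 and Oas1a lie above 0, with lower ends at 1.03, 0.69 and 2.06, and those of the other genes include 0.

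Among the membrane effectors, Ifitm1 changed most. Ifitm proteins sit in cell membranes and hinder the fusion of enveloped viruses, and Ifitm1 and Ifitm3 are also known from the germ line of the mouse embryo. Ifitm1 measured 4350.1 and 4604 on the WT arrays against 9869 and 10519 on the Suz12KO arrays. Each Suz12KO array was between 2.14 and 2.42 times each WT array, with no overlap between genotypes. The log2 fold change was 1.18 (SE 0.07, limma adjusted p = 1.37e-05), from a mean signal of 4477 ± 180 to 10194 ± 460 (SD, n = 2 arrays each).

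Ifitm2, the neighbouring paralog of Ifitm1, measured 4189 and 4336 on the WT arrays against 7770.5 and 7579.6 on the Suz12KO arrays. The genotypes were again well separated, with folds of 1.75 to 1.85 over the 4 pairs of arrays. Its log2 fold change was 0.85 (SE 0.07, limma adjusted p = 7.81e-05), from 4262 ± 104 to 7675 ± 135 (SD, n = 2).

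Ifitm3, the family member with the best documented role against influenza virus, measured 6689 and 6966 on the WT arrays against 7232 and 7479 on the Suz12KO arrays. The groups did not overlap, but they lay close together, at folds of 1.04 to 1.12 over the array pairs. The log2 fold change of 0.11 (SE 0.06, 95% interval -0.04 to 0.25) did not pass the test (limma adjusted p = 0.365), and it was -0.06 when each array was centred on its median. Within each pair of arrays the 3 Ifitm genes therefore changed by unequal amounts. The log2 change of Ifitm1 exceeded that of Ifitm3 by 1.08, and by 1.04 to 1.11 over the 4 pairs of arrays. The excess of Ifitm2 over Ifitm3 was 0.74 (0.69 to 0.79). A factor applied to a whole array cancels in such differences, apart from the pseudocount, and an exact permutation test gave p = 0.333 for each, two-sided, which is the smallest p that 2 arrays against 2 allow.

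Bst2, also called tetherin, holds budding virus particles at the cell surface. It measured 678 and 593 on the WT arrays against 428 and 662 on the Suz12KO arrays. All 4 signals were above background and the genotypes overlapped, with Suz12KO replicate 1 as the low array. The log2 fold change was -0.24 (SE 0.25, 95% interval -0.82 to 0.33, limma adjusted p = 0.623), and without Suz12KO replicate 1 it was 0.06.

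Oas1a had the largest rise of the group. It encodes an oligoadenylate synthetase, which senses double-stranded RNA and switches on the nuclease RNase L. It measured 118 and 106 on the WT arrays, both within background, against 891 and 832 on the Suz12KO arrays, both far above it. Since the WT level is not measured, the rise of Oas1a is given as a bound on array means, 4.86-fold or more. Over its alternatives the bound lay between 4.23-fold and 5.59-fold. This bound sets the mean of the Suz12KO arrays against the highest spike of each WT array, on the log2(signal + 16) scale. The fitted log2 fold change was 2.78 (SE 0.32, limma adjusted p = 6.30e-04), and the WT signals alone would lie under the level filter, which corresponds to a signal of 130. Without any level filter Oas1a still passed (limma adjusted p = 0.00247).

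The 3 calls held under every alternative run with a spread that depends on signal level, with adjusted p at most 3.48e-04 for Ifitm1, 8.31e-04 for Ifitm2 and 0.00372 for Oas1a. Without that dependence limma called 0 of the 7 genes (smallest adjusted p over all genes 0.0999), with 3 at an unadjusted p under 0.05, and it called 0 of all 12735 genes. Leaving out each array in turn moved the log2 fold change of Ifitm1 between 1.14 and 1.23, of Ifitm2 between 0.82 and 0.87 and of Oas1a between 2.71 and 2.85.

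The regulators showed no change past the test. Irf1, a factor induced by interferon gamma and other cytokines, measured 2235 and 2190.4 on the WT arrays against 2174 and 2236 on the Suz12KO arrays. The 4 arrays spanned a narrow range and the genotypes overlapped. The log2 fold change was -0.01 (SE 0.10, 95% interval -0.22 to 0.21, limma adjusted p = 0.985), and it was 0.04 under quantile normalization.

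Irf9, the DNA-binding subunit of the type I interferon complex, measured 252 and 140.1 on the WT arrays against 461 and 265 on the Suz12KO arrays. The second WT signal was within background and the lower Suz12KO signal was close to the higher WT signal, so the fold ranged from 1.05 to 3.29 over the array pairs. The log2 fold change was 0.84 (SE 0.45, 95% interval -0.18 to 1.86, limma adjusted p = 0.305). It was close in size to that of Ifitm2 and less precise, and it moved between 0.45 and 1.23 as each array was left out.

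Irf7, the factor that amplifies interferon production, measured 39.9 and 294 on the WT arrays against 207 and 49.6 on the Suz12KO arrays. In each genotype 1 array lay above background and 1 within it, so the replicates disagreed more than the genotypes. Its mean level fell under the filter, and in the fit over 31526 probe sets, where it was kept, the adjusted p was 0.967 (limma).

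Of the other genes of the pathway, 142 in 6 lists were on the array, 96 passed the level filter and 14 passed the test. They were 8 higher, or 8.33%, beside 4.48% of all tested genes, and 6 lower, or 6.25%, beside 5.5%, with a median log2 fold change of 0.07. After centring each array on its median, which moved the median of all tested genes from 0.04 to -0.13, the lists held 5 higher and 10 lower. With the mean of each gene's probe sets 5 passed, and without WT replicate 1 or WT replicate 2 there were 9 and 7. The lists were drawn up with earlier results of these arrays known.

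**Figure D4:**
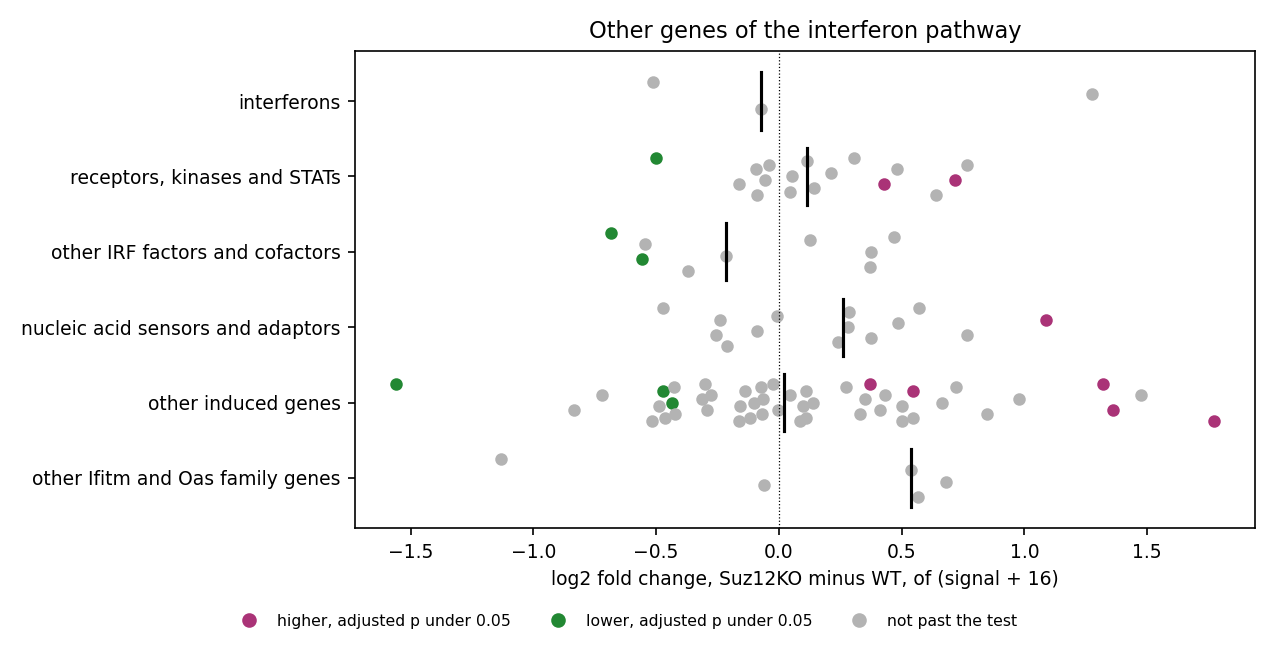
Log2 fold change of signal + 16 (Suz12KO minus WT) of 96 tested genes in 6 interferon lists. Each point is a gene, coloured where it passed the test, and black bars are list medians. Points scatter to both sides of 0 in the list of other induced genes, whose median is 0.02.

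No interferon gene passed the test. Of 8 interferon genes on the array 3 were tested and 0 passed (limma, 0 at an unadjusted p under 0.05). With 9.97% of all tested genes called in either direction, 0 calls among 3 say little. Ifnb1, the first interferon made after viral infection, measured 313 and 322 on the WT arrays against 351 and 258 on the Suz12KO arrays (log2 fold change -0.07, limma adjusted p = 0.931), and Ifnz had a log2 fold change of -0.51 (adjusted p = 0.704). The third, Ifna5, is named after its values were seen and had a positive change. It measured 142 and 59.8 on the WT arrays against 354 and 174 on the Suz12KO arrays, with no overlap. The 59.8 was within background, and the 142 and 174 lay barely above it. Its log2 fold change was 1.27 (SE 0.64, 95% interval -0.18 to 2.72, limma adjusted p = 0.276). Ifna1, under the level filter and also named after its values were seen, went the other way. It measured 224 and 290 on the WT arrays against 27.5 and 121 on the Suz12KO arrays, the latter both within background. Ifnb1 and Ifnz turned above 0 without Suz12KO replicate 2, to 0.14 and 0.39, and Ifnz also without WT replicate 1, to 0.01.

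Among 17 tested receptors, kinases, STATs and their regulators, Pias2 and Socs3 rose and Ptpn11 fell (list median 0.11). The 2 higher genes make up 11.8%, beside 4.48% of all tested genes, and the 1 lower gene 5.88%, beside 5.5%. The other 14 did not pass the test. Pias2, a SUMO ligase of a family that restrains STATs, had a log2 change of 0.72 (SE 0.11), from 1542 and 1786 to 2656 and 2823. Socs3, a feedback inhibitor of cytokine receptors, rose by 0.43 (SE 0.11, limma adjusted p = 0.0406). The phosphatase Ptpn11 fell by 0.50 (SE 0.11). The Pias2 call was lost with the mean of its 3 probe sets (0.39) and without suffixed probe sets (0.18), and the Ptpn11 call with the mean of its probe sets (-0.23) and without WT replicate 1 (-0.39). Socs3 no longer passed when WT replicate 1 (0.41), WT replicate 2 (0.44) or Suz12KO replicate 2 (0.33) was left out, without the level filter, after centring (0.26) and with the mean of its probe sets (0.30). Stat2 measured 281 and 159 on the WT arrays against 215 and 247 on the Suz12KO arrays and did not pass.

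Among 9 tested genes of the wider IRF group, 2 were lower (22.2%, beside 5.5% of all tested genes). The other 7 missed the threshold (list median -0.22). Irf2bp2, a corepressor that binds Irf2, fell by 0.68 in log2 units (SE 0.13), from 1549 and 1617 to 1034 and 927. Its relative Irf2bpl fell by 0.56 (SE 0.13). Irf2bp2 lost its call without WT replicate 2 (-0.65) and with the mean of its probe sets (-0.76). Irf2bpl no longer passed with that mean (-0.56) or when WT replicate 1 (-0.53), WT replicate 2 (-0.59) or Suz12KO replicate 1 (-0.46) was left out. Irf3, the factor activated directly by viral RNA sensing, measured 1490.4 and 1685 on the WT arrays against 1340 and 1117 on the Suz12KO arrays (log2 fold change -0.37, limma adjusted p = 0.147). It is named here after its values were seen.

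Of 14 tested sensors and adaptors of foreign nucleic acid, 1 was higher (7.14%, beside 4.48% of all tested genes). The other 13 missed the threshold (list median 0.26). The higher gene was Trim25, a ubiquitin ligase that activates the RNA sensor RIG-I. Trim25 measured 1235 and 1105 on the WT arrays against 2414 and 2594 on the Suz12KO arrays, or 1.09 in log2 units (SE 0.12, limma adjusted p = 4.15e-04). Its other 2 probe sets did not overlap between genotypes either, with 1123 and 924 against 2020 and 1701, and 340 and 328 against 659 and 762.

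Of 48 other tested induced genes, 40 did not pass the test and the list median was 0.02. The 5 higher genes make up 10.4%, beside 4.48% of all tested genes, and the 3 lower genes 6.25%, beside 5.5%. Phf11d, a PHD finger gene, had a log2 change of 1.77 (SE 0.23), from 310 and 327 to 1317 and 962. Mov10, an RNA helicase that restrains retroviruses and retrotransposons, rose by 1.36 (SE 0.22), and Zc3hav1, the zinc finger antiviral protein, by 1.32 (SE 0.22). The second Mov10 probe set measured 406 and 490 on the WT arrays against 479 and 521 on the Suz12KO arrays and overlapped, and the mean of both (0.76) did not pass. Zc3hav1 lost its call likewise with the mean of its probe sets (0.58), of which another above background measured 347 and 320 on the WT arrays against 451 and 474 on the Suz12KO arrays. Apobec3, a cytidine deaminase that restricts retroviruses, rose by 0.54 (SE 0.12) and Daxx, a histone chaperone, by 0.37 (SE 0.09), and these are named after their values were seen. Daxx no longer passed when any 1 array was left out (0.36 to 0.39), Apobec3 when WT replicate 1 (0.58), WT replicate 2 (0.51) or Suz12KO replicate 2 (0.48) was left out, and neither passed after centring (0.20 for Daxx and 0.38 for Apobec3).

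Gbp2, a GTPase that coats intracellular pathogens and is strongly induced by interferon gamma, fell. It measured 2083 and 2067 on the WT arrays against 613 and 785 on the Suz12KO arrays, or -1.56 in log2 units (SE 0.15, limma adjusted p = 2.51e-04). A second Gbp2 probe set measured 1012 and 1093 on the WT arrays against 385 and 419 on the Suz12KO arrays. Ly6e, a surface protein that restricts coronaviruses, fell by 0.47 (SE 0.13, limma adjusted p = 0.0481), and Ifrd1, a transcriptional coregulator named for its relation to interferon, by 0.43 (SE 0.10). Ly6e no longer passed when any 1 array was left out (-0.43 to -0.51), under quantile normalization, with robust estimation or without the level filter, and turned to 0.06 with the mean of its probe sets, of which the second was within background in WT. Ifrd1 lost its call without WT replicate 2 (-0.34) or Suz12KO replicate 1 (-0.41) and with the mean of probe sets (-0.43).

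Several classical induced genes gave no signal above background. Of 70 other induced genes on the array, 17 were within background on all 4 arrays, including Ifit1, Ifit2, Ifit3, Mx1 and Mx2, which are named after their values were seen. Ifit1, an RNA-binding protein that blocks viral translation, measured 60.3 and 150.3 on the WT arrays against 43.8 and 16.01 on the Suz12KO arrays. Mx1, a GTPase active against influenza virus, measured 77.3 and 28.8 on the WT arrays against 68.0 and 134 on the Suz12KO arrays. No direction can be read from such signals. Other classical genes did give signal and are also named after their values were seen. Rsad2 was above background on all 4 arrays, barely so on WT replicate 2. It measured 188 and 193 on the WT arrays against 256 and 378 on the Suz12KO arrays and did not pass. Isg15 was left out of the counts because its probe set lists another symbol. It measured 102, within background, and 410 on the WT arrays against 403 and 239 on the Suz12KO arrays, and overlapped.

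Response element cores were common in this list, both among genes that passed the test and among genes that did not. Of 57 genes of the list with a RefSeq promoter 23 held the core in at least 1 window (40.4%), against 3.99% of 27025 genes. Of the 42 that were also tested, 17 had a core, with a median log2 fold change of -0.07 and 2 calls (Apobec3 higher and Gbp2 lower). The 25 without a core had a median of 0.05 and 5 calls. Over all tested genes 9.97% were called in either direction. The difference between the genes with and without a core was not tested.

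No other Ifitm or Oas family gene passed the test. Of 13 on the array 5 were tested and 0 passed (limma, 0 at an unadjusted p under 0.05), and 4 were within background on every array. With 9.97% of all tested genes called in either direction, 0 calls among 5 say little. Ifitm7 measured 456 and 304 on the WT arrays against 323 and 393 on the Suz12KO arrays, a difference of -0.06 in log2 units (limma adjusted p = 0.939), which was 0.22 without WT replicate 1 and 0.07 without Suz12KO replicate 1. Oasl1, an oligoadenylate synthetase-like protein, measured 349 and 250.1 on the WT arrays against 537 and 369 on the Suz12KO arrays, with a log2 fold change of 0.57 (SE 0.33, adjusted p = 0.346). Oas2, a larger enzyme of the same kind as Oas1a and named after its values were seen, measured 97.0 and 278 on the WT arrays against 250.4 and 305 on the Suz12KO arrays and overlapped.

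The rises were also set beside the genes next to them on the chromosome. In RefSeq order Ifitm2, Ifitm1 and Ifitm3 follow each other, and of 20 protein-coding neighbours, 10 on each side, 18 were on the array and 14 were tested. Ptdss2, a phosphatidylserine synthase 6 genes beyond Ifitm3, is named after its values were seen. It rose by 0.36 on the log2 scale (SE 0.08, limma adjusted p = 0.0214), beside 4.48% of all tested genes called higher. The other 13 did not pass. Some of these had estimates as large or larger, with wider errors: Sigirr at 0.91 (SE 0.43), whose arrays overlapped, and B4galnt4 at 0.65 (SE 0.24), whose arrays did not, both named after their values were seen. Ptdss2 no longer passed when WT replicate 1 (0.39), WT replicate 2 (0.33) or Suz12KO replicate 2 (0.33) was left out, after centring (0.19), with the mean of its probe sets (0.31) or without suffixed probe sets (0.39). Around Oas1a, 11 of 20 neighbours were tested. Of these, Ptpn11 fell, beside 5.5% of all tested genes called lower, and 10 did not pass. The 4 nearest Oas genes that were on the array on that side (Oas1h, Oas1f, Oas1c and Oas1e) read at most 355 on any array, and the first 3 of them were within background throughout.

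**Figure D5:**
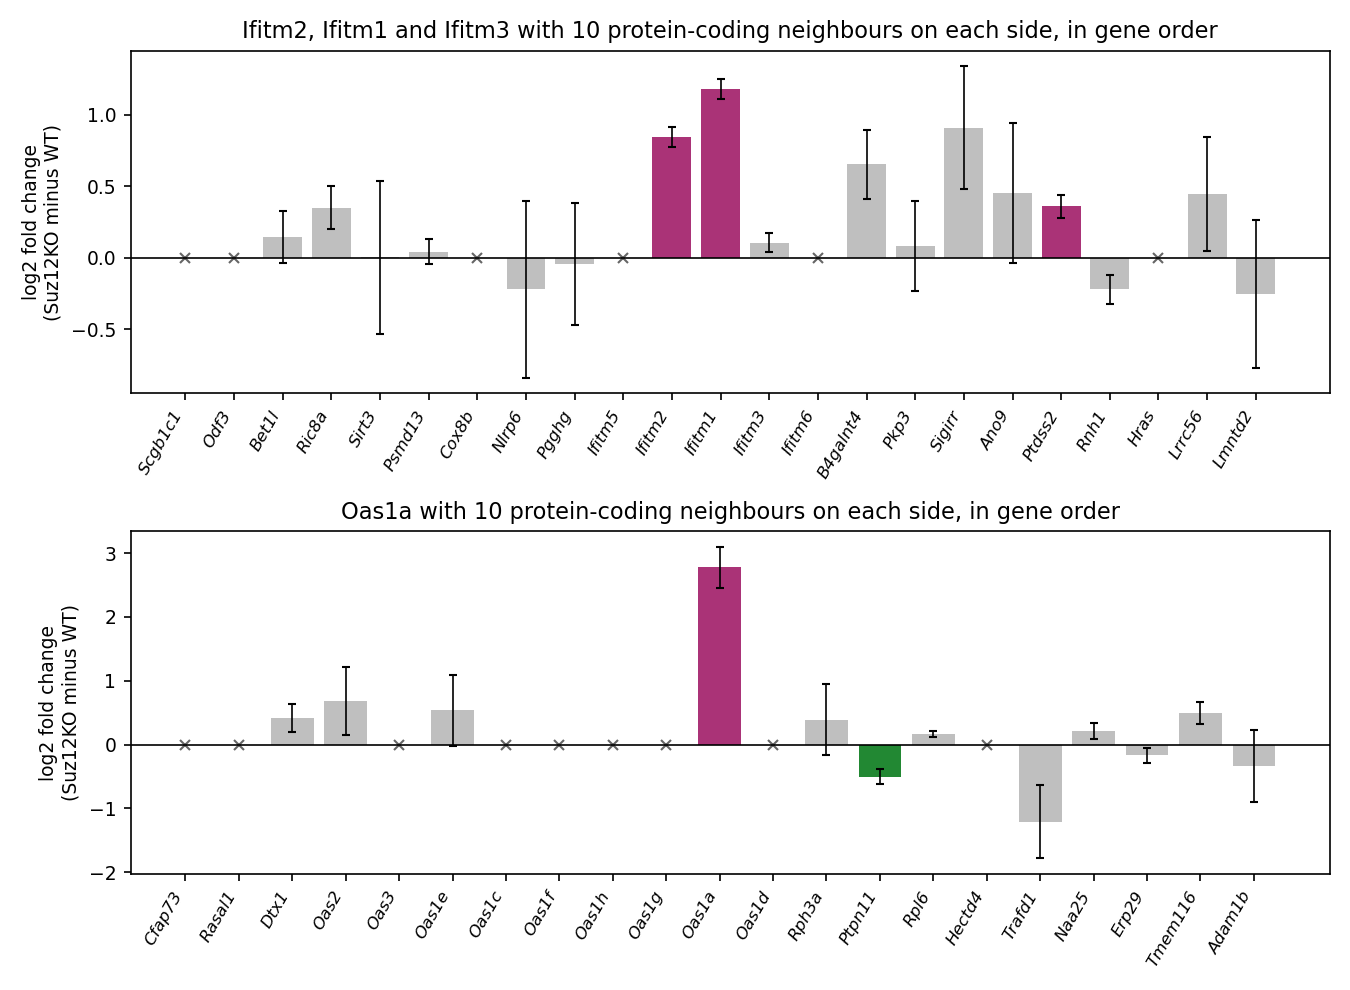
Log2 fold change (Suz12KO minus WT, of signal + 16) of the Ifitm genes and of Oas1a with their protein-coding neighbours in chromosome order. Bars are estimates with limma standard errors, coloured where the gene passed the test (purple higher, green lower), and crosses mark genes not tested or not on the array. Ifitm2 (0.85), Ifitm1 (1.18) and Oas1a (2.78) passed the test, as did Ptdss2 (0.36) and Ptpn11 (-0.50). Genes in grey did not pass, and Sigirr (0.91) among them has an estimate above that of Ifitm2 with a wide error bar.

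For each gene that rose, the 2 tested genes with the closest pattern over the 4 arrays were listed by the root mean square difference of log2 values centred on their own mean. Nearest to Ifitm1 were the Wnt receptor gene Fzd4 (0.015) and Trak1, an adaptor of mitochondrial transport (0.036). Nearest to Ifitm2 were Lmbr1l (0.023) and Tdrd12, a germline Tudor protein (0.026). Nearest to Oas1a were the T-box factor Tbx3 (0.16) and Pnma5 (0.20). With 4 arrays in 2 groups such closeness mainly reflects a similar fold change, and Fzd4, Lmbr1l and Tdrd12 did not pass the test themselves (limma adjusted p = 0.0890, 0.0562 and 0.0751).

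Markers of primordial germ cells, in which Ifitm3 and Ifitm1 are known to be expressed, were measured beside them. All 7 on the array were tested, and Prdm14, Kit, Tfap2c and Dppa3 rose (57.1%, beside 4.48% of all tested genes). Prdm1, Dnd1 and Ddx4 did not pass. Kit and Tfap2c passed narrowly (limma adjusted p = 0.0411 and 0.0381) and missed the threshold in the limma fit of all probe sets (0.0570 and 0.0534). Prdm14 was within background on both WT arrays and under the filter level there, so it was tested because of its Suz12KO signals. Its bound on array means, taken as for Oas1a on the log2(signal + 16) scale, was 3.18-fold or more. Prdm14 passed without the level filter (limma adjusted p = 0.0202). Their summed signal was 3337 and 3580 on the WT arrays against 6084 and 5461 on the Suz12KO arrays. Dppa3, Tfap2c, Kit, Prdm1 and Dnd1 were above background on both WT arrays, and Ddx4 on 1. Some of these markers are also expressed by embryonic stem cells, and their part in the change of the Ifitm genes was not tested.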

How the data were processed

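Total RNA was measured on 4 arrays, grouped by sample title. The deposited values are probe set signals, an intensity on a linear scale that the authors had scaled: the mean without the lowest and highest 2% was 500.003 on every array. A shift common to most genes is therefore lost. The sources used here do not give the summarisation software.

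Symbols came from the platform annotation. Each of 18193 genes was represented by its brightest probe set with 1 symbol, and the 12735 above the 30th percentile of mean log2 value were tested. They were tested as log2(signal + 16) by limma 3.58.1 in R 4.3.3 (moderated by eBayes with its trend option; two-sided p-values, adjusted by Benjamini-Hochberg). The second fit used every probe set that was no control. The procedure was also run on simulated data. Their spread was drawn from the fitted trend, so that run cannot test the trend itself. Figures were drawn with matplotlib 3.10.9.

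The members and lists were chosen with earlier results of these data known. Named genes were all members, per list the 3 largest rises and falls past the test (or the 2 brightest where none passed), Suz12, and the 2 genes nearest in pattern to each called member. Predicted gene names were not used. The number of arrays limits the precision. Alternatives were a pseudocount of 1 or 64, quantile normalization, centring on the median, no filter or one at the 50th percentile, no trend, robust estimation, the replicate number as a block, averaging probe sets by gene, no suffixed probe sets, and leaving out each array.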

Additional observations from a re-analysis of the deposited data

How the results depend on the processing

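The 3 calls among the members were the same in number under every alternative by gene and by probe set except limma without a trend, where 0 member genes and 0 member probe sets passed (3 of each at an unadjusted p under 0.05), as did 0 of the 96 list genes (19 unadjusted) and 0 of all genes (2332 unadjusted). All genes called numbered 1270, and 2098 with the replicate block, 611 with the mean of probe sets and 776 to 1277 as each array was left out. After centring, 294 were higher and 1243 lower in place of 570 and 700. List genes called numbered 14, and 5 with the mean of probe sets and 7 to 12 as each array was left out. The replicate numbers were not taken as pairs in the main fit. The replicate differences of the genotypes correlated at 0.015 across genes, which cannot tell whether arrays of the same number were processed together. With the replicate block 3 member genes and 3 member probe sets were called.

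Some directions turned: Irf1 was 0.042 under quantile normalization and -0.025 to 0.01 as arrays were left out, Ifitm3 -0.060 after centring, Ly6e 0.060 with the mean and 0.59 without suffixed probe sets, and Fzd4 -0.13 with the mean. As arrays were left out, Bst2 ranged from -0.55 to 0.062, Ifitm7 from -0.34 to 0.22, Ifnb1 from -0.29 to 0.14 and Ifnz from -1.41 to 0.39. The cause was not tested. The Oas1a bound lay between 4.23-fold and 5.59-fold over its alternatives. Signals within background limit Oas1a in WT, Irf7 and Irf9.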
